A study of Mus musculus with 18 samples.

Results

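Genes that make, move and store cholesterol were followed in microglia, the brain's own immune cells, of mouse embryos. The set was a list of 8 genes: Hmgcs1, Sqle, Idi1, Srebf2, Abca1, Abcg1, Nr1h3 and Soat1. Members were all probe sets that name one of these genes and no other in the deposited log2 table. A probe set is a group of array probes that together report one transcript or part of it. Of the 8 genes, 7 had such a probe set, against 18194 genes named in this way on the whole array, and Soat1 is not analysed here. The 7 genes were read by 16 probe sets of 34958: 5 for Hmgcs1, 3 for Abca1, 2 each for Idi1, Srebf2 and Abcg1, and 1 each for Sqle and Nr1h3.

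The cells came from pooled hippocampi of embryos at E17.5 on a C57BL/6 background, of unrecorded sex, and were sorted by FACS as CX3CR1-GFP+ cells, which carry green fluorescent protein as a microglial reporter. RNA was pooled per pregnant dam, so an array reads many embryos, and it was amplified before hybridization to Affymetrix Mouse430_2 arrays. The LPS group (4 arrays) held wild type embryos of dams with maternal inflammation by lipopolysaccharide, a bacterial cell wall component, and the PBS group (4 arrays) held wild type embryos of control dams given phosphate-buffered saline. The DAP12KO group (4 arrays) held untreated DAP12-/- embryos, which lack the microglial signalling adaptor DAP12, and the UT group (6 arrays) held untreated wild type embryos. The sources used here do not give the dose and timing of LPS, the extent of the DAP12 deletion or the copy number of the Cx3cr1 reporter. Nor do they say whether separate dams stand behind every array, so the p-values measure the spread between these arrays. Each label ends in a year, written here as _2008, _2010, _2012 or _2013, and what the year marks is not said. LPS and PBS arrays had 1 each in _2008, 2 each in _2010 and 1 each in _2013, all DAP12KO arrays were of _2013, and UT arrays were of _2012 (2) and _2013 (4).

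Cells build cholesterol from acetyl-CoA through the mevalonate pathway, in which HMG-CoA synthase (Hmgcs1), isopentenyl-diphosphate isomerase (Idi1) and squalene epoxidase (Sqle) catalyse successive stages. When sterol in the endoplasmic reticulum is low, the transcription factor SREBP2, encoded by Srebf2, is cleaved and turns these genes on. When sterol is abundant, oxysterols activate the nuclear receptors LXR, one of which is encoded by Nr1h3, and LXR induces the export pumps Abca1 and Abcg1, while Soat1 esterifies cholesterol for storage in droplets. In the brain, cholesterol is made locally, neurons and glia at this age draw on it heavily, and microglia take up and export lipid from cell debris. None of the 8 genes is an uptake receptor, so uptake was read from a separate list.

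Promoters of the members were searched for the letters of sterol-responsive elements, and the 3 shown are those that carry such letters. Sequences are from RefSeq on build GRCm38.p6 and run from 250 bases before to 50 bases after the annotated start. Of the 8 genes, 6 had a promoter in the table. Sqle and Abcg1 had none. Capitals mark TCACNCCAC in Hmgcs1, TCACCCCA in Srebf2, and in Abca1 a direct repeat of NGGTNA with a spacer of 4 bases, read here on the opposite strand. The first 2 are forms of the sterol regulatory element that SREBP proteins bind and the third is a loose form of the element that LXR binds.
Hmgcs1, chr13:119690101-119690400, plus strand: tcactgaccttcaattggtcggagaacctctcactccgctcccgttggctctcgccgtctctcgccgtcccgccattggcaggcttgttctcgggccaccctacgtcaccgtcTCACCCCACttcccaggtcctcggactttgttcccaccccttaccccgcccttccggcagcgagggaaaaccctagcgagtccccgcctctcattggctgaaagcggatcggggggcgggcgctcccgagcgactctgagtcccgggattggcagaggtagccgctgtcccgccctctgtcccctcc
Srebf2, chr15:82147019-82147318, plus strand: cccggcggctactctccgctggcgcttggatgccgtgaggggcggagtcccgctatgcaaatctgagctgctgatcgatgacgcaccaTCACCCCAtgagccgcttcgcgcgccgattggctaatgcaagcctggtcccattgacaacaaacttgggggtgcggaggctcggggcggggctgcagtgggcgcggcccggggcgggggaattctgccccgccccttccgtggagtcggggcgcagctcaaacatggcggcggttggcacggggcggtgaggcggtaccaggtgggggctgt
Abca1, chr4:53159846-53160145, minus strand: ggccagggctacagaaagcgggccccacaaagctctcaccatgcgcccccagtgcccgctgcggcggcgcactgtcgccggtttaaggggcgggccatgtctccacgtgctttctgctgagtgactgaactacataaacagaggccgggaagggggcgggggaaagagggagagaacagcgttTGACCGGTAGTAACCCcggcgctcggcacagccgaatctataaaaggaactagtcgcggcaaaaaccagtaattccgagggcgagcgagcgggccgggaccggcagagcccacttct

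The Hmgcs1 element begins 137 bases upstream of the start, the Srebf2 element 162 bases upstream and the Abca1 repeat 67 bases upstream. The Abca1 start used for its promoter lies inside the gene span given below, so the repeat falls within that span. Both strands of 32851 promoters of the same length were searched, and 1.24% held TCACNCCAC, 1.56% held TCACCCCA, with which it overlaps, and 0.718% held the direct repeat. TCACCCCA was added after the Srebf2 sequence had been read, which holds no TCACNCCAC, so that match was certain beforehand. Idi1, Nr1h3 and Soat1 matched neither sterol regulatory element nor the direct repeat. CCAAT, the box of the cofactor NF-Y, matched 4 times in Hmgcs1, 2 times in Idi1 and 1 time each in Srebf2 and Soat1, and 37.4% of all promoters held it. GGGCGG, the box of Sp1, matched 3 times in Hmgcs1, 5 times in Srebf2, 2 times in Abca1 and 1 time each in Idi1 and Soat1, with 35.7% of all promoters holding it. These are matches of letters only, and no binding was measured.

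Values are log2 expression, on which 1 unit is a 2-fold step, and a value under 2.49 is called near the floor of the array. That threshold is the 40th percentile of probe set means, and 22512 probe sets lay at or above it and were tested, with 15 of the 16 member probe sets among them. Microglial markers were bright as a set: their mean over 17 genes was 11.55 to 13.72 on all arrays, and Cx3cr1 was at 10.75 or above throughout. Single markers went lower, with Itgam down to 5.34 and Trem2 down to 6.22. Of 7 border macrophage markers, Mrc1 was at 11.98 or above and Pf4 at 10.65 or above on every array. The lowest values of the rest ran from 2.31 (Cbr2) to 6.51 (Lyve1). The 2 PBS arrays of _2010 stood apart from the other 16. Their mean over 17 microglial markers was 11.55 and 11.79, against 12.68 to 13.72 elsewhere. Their mean over 15 neuron markers was 10.15 and 10.25, against 5.62 to 8.71 elsewhere, and over 12 markers of neural progenitors and radial glia it was 10.86 and 10.88, against 5.86 to 8.71. The 2 LPS arrays of _2010 came next among neuron markers, at 8.57 and 8.71. In a sorted bulk sample, fewer cells of a type and less RNA per cell cannot be told apart. Member results and pathway list counts for LPS minus PBS that lean on the 2 PBS arrays are given with and without them. Single list genes that are not members are given with all arrays only. Tyrobp, the gene of DAP12, was at 13.75 to 14.23 in DAP12KO and 14.29 to 14.55 in UT, a difference of −0.60 ± 0.13 (limma adjusted p = 0.48). The groups did not overlap, yet the transcript stayed bright, and the sources used here do not place its probes relative to the deletion, so it is no check of the labels.

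Hmgcs1, the gene of the enzyme that commits acetyl units to the mevalonate pathway, lies on chr13:119690351-119708260. Its brightest probe set, 1433443_a_at, read 12.89 on the LPS array of _2008, 13.23 and 12.87 on those of _2010 and 12.64 on that of _2013. The PBS arrays read 13.35, then 14.12 and 13.29, then 13.02 in the same order of years. In each year the LPS value lay below the PBS mean, so 4 of 4 LPS arrays were lower, although the groups overlapped when the years were pooled. The within-year differences were −0.46, −0.65 and −0.39. The fit gave −0.54 ± 0.21 (95% interval −0.98 to −0.09, unadjusted p = 0.0205, limma adjusted p = 0.31), which did not pass. Without the 2 PBS arrays of _2010 the difference was −0.42 ± 0.26 (adjusted p = 0.544). The DAP12KO arrays read 12.56, 12.63, 13.10 and 12.73. The UT arrays had a lowest value of 12.38, a median of 12.84 and a highest of 12.94. These groups overlapped, and their means within _2013 were equal to 2 decimals at 12.76 (95% interval of the difference −0.44 to 0.44).

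Of the other 4 probe sets of Hmgcs1, 3 spanned wider ranges. Probe set 1433445_x_at, whose suffix marks probes that other sequences can share, spanned 8.40 to 10.87 over the 18 arrays, 1433444_at spanned 7.02 to 10.27 and 1433446_at spanned 6.74 to 11.70. Their LPS minus PBS differences were −0.73 ± 0.42, −0.65 ± 0.58 and −0.80 ± 0.59, with limma adjusted p of 0.497, 0.702 and 0.619. Without the 2 PBS arrays of _2010 these became −0.08 ± 0.54, 0.54 ± 0.71 and −0.29 ± 0.87 in the same order. In _2008 the LPS array was 1.58 above the PBS array for 1433444_at, and the difference for 1433446_at was −1.17, so probe sets of the same gene disagreed. The fifth, 1441536_at, read between 2.19 and 2.93 and was near the floor on 3 arrays. For 1433446_at all 4 DAP12KO arrays (8.59 to 9.21) lay above the UT mean of _2013 (8.16), but UT itself ran from 6.74 to 9.75 (difference 0.74 ± 0.59, limma adjusted p = 0.923).

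Sqle, which encodes squalene epoxidase, lies on chr15:59315092-59331193 and was read by 1 probe set, 1415993_at. The LPS arrays were close together at 8.59 (_2008), 8.59 and 7.93 (_2010) and 8.44 (_2013). The PBS arrays were scattered, at 6.68 (_2008), 10.25 and 9.70 (_2010) and 7.97 (_2013). LPS was thus above PBS by 1.91 in _2008 and by 0.47 in _2013, and the difference in _2010 was −1.72. Averaged over years these gave −0.26 ± 0.81 (limma adjusted p = 0.954), with an interval of −1.99 to 1.47 that leaves a change of either sign possible. Without the 2 PBS arrays of _2010 the difference was 1.19 ± 1.11 (adjusted p = 0.747). DAP12KO read 6.64, 5.18, 7.86 and 7.71, and UT ran from 5.12 through a median of 7.42 to 8.19. The groups had similar spreads and overlapped (−0.39 ± 0.81, adjusted p = 0.988).

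Idi1, whose enzyme makes the activated isoprene unit that downstream enzymes condense, lies on chr13:8885606-8892396. Probe set 1423804_a_at repeated the Sqle pattern. LPS read 10.58 (_2008), 10.33 and 10.07 (_2010) and 10.39 (_2013), and PBS read 9.38, 11.51 and 11.95, and 9.61. LPS was above PBS by 1.19 in _2008 and 0.79 in _2013, and the difference in _2010 was −1.53. The fit gave −0.27 ± 0.64 (limma adjusted p = 0.932), or 0.99 ± 0.86 (adjusted p = 0.716) without the 2 PBS arrays of _2010. The second probe set, 1451122_at, had within-year differences of −0.39, −1.02 and 0.34 and a fitted value of −0.52 ± 0.70 (adjusted p = 0.839). Its fitted value was −0.02 ± 1.07 without the 2 PBS arrays of _2010. DAP12KO was the widest group for both, at 7.75 to 10.84 for 1423804_a_at and 6.18 to 10.77 for 1451122_at. The same arrays, replicates 1 and 5, gave the lowest and the highest value on each. UT ran from 8.73 to 10.57 and from 7.91 to 9.06, inside those ranges.

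**Figure D1:**
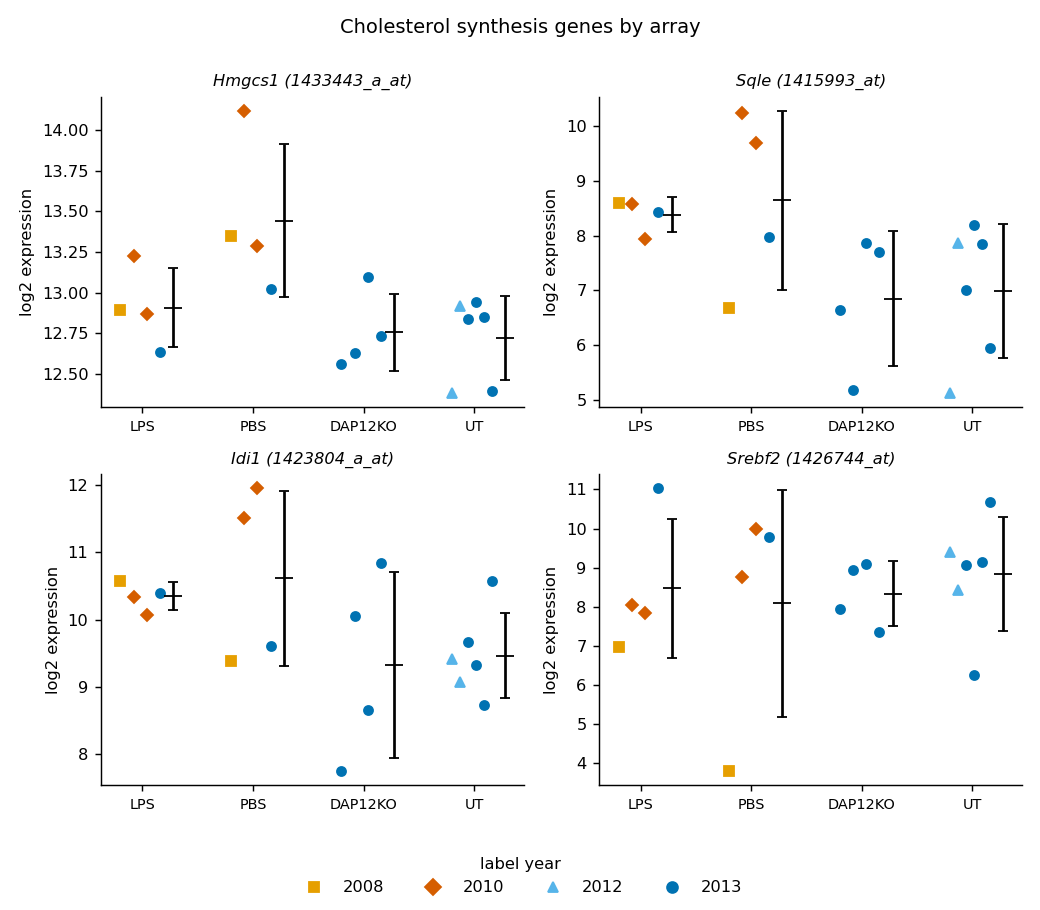
Log2 expression of Hmgcs1, Sqle, Idi1 and Srebf2 (1 probe set each, y axis) on each array, by group (x axis) and label year (colour and shape); black marks are the group mean ± SD. The 2 PBS arrays of _2010 are the highest of all arrays for Sqle (10.25 and 9.70) and Idi1 (11.51 and 11.95), and LPS lies between them and the PBS arrays of _2008 and _2013 for Idi1.

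Srebf2, the master regulator of the synthesis genes, lies on chr15:82147269-82205379 and had 2 probe sets, which did not follow each other. For 1426744_at, LPS read 6.96 (_2008), 8.05 and 7.85 (_2010) and 11.03 (_2013), and PBS read 3.80, 8.76 and 9.98, and 9.79. For 1452174_at, LPS read 3.99, 6.93 and 7.41, and 8.18, and PBS read 6.16, 7.02 and 7.44, and 7.18. In _2008 the first put LPS 3.16 above PBS and the second gave a difference of −2.17. UT replicate 2 of _2013 was the lowest UT array on the first, at 6.26, and the highest on the second, at 10.40. The fitted LPS minus PBS differences were 0.39 ± 0.88 and −0.32 ± 0.83, and those of DAP12KO minus UT −0.46 ± 0.88 and −1.19 ± 0.83 (limma adjusted p from 0.921 to 0.986 over all 4). Intervals such as −2.95 to 0.56 for the last show that these arrays hold little information on the level of Srebf2 mRNA. Without the 2 PBS arrays of _2010 the LPS minus PBS differences were 2.20 ± 1.14 for 1426744_at and −0.59 ± 1.27 for 1452174_at.

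On the export side, Abca1 encodes the pump that hands cholesterol to lipid-poor apolipoproteins, lies on chr4:53030789-53159988 and had 3 probe sets. They were alike in part only: the LPS array of _2008 was the highest LPS array on 1421840_at (13.40) and the lowest on 1421839_at (10.26). On 1421840_at, LPS read 13.40 (_2008), 12.80 and 12.59 (_2010) and 13.08 (_2013), and PBS read 13.03, 12.23 and 11.90, and 13.28. The 2 PBS arrays of _2010 were the 2 lowest of the 18 on all 3 probe sets, with 9.89 and 9.36 on 1421839_at and 11.40 and 11.52 on 1450392_at. The within-year LPS minus PBS differences of 1421840_at were 0.38, 0.63 and −0.20. The fit gave 0.36 ± 0.18 for 1421840_at, 0.40 ± 0.24 for 1450392_at and 0.62 ± 0.31 for 1421839_at (limma adjusted p of 0.444, 0.533 and 0.435). With the 2 PBS arrays of _2010 left out these became 0.09 ± 0.23, −0.05 ± 0.31 and 0.06 ± 0.38.

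In DAP12KO, Abca1 read 12.71, 12.77, 12.63 and 13.31 on 1421840_at, while UT ran from 13.04 through 13.20 to 13.31. Replicates 1, 2 and 4 of DAP12KO lay below all 6 UT arrays, and replicate 5 stood level with the highest of them. The difference was −0.28 ± 0.18 (95% interval −0.67 to 0.11, limma adjusted p = 0.921). Probe set 1450392_at showed the same arrangement, with the same 3 replicates of DAP12KO (12.65, 12.19 and 12.39) below all UT arrays (12.81 to 13.47) and replicate 5 at 13.31 among them (−0.35 ± 0.24). The third, 1421839_at, had DAP12KO at 10.79 to 11.80, with 2 of 4 arrays below the UT range of 11.22 to 12.53 (−0.16 ± 0.31).

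Abcg1, the partner pump that exports cholesterol to high-density lipoprotein, lies on chr17:31057694-31117984. On 1423570_at, LPS read 11.40 (_2008), 11.60 and 11.01 (_2010) and 11.34 (_2013). PBS read 10.60, then 10.34 and 9.87, then 11.49. LPS was above PBS by 0.81 in _2008 and 1.20 in _2010, and the difference in _2013 was −0.16, so that 3 of 4 LPS arrays lay above the PBS mean of their year. The fitted difference, 0.76 ± 0.29 (95% interval 0.15 to 1.37), was the largest increase among the members (unadjusted p = 0.0178, limma adjusted p = 0.297) and did not pass. It was 0.32 ± 0.37 (adjusted p = 0.813) without the 2 PBS arrays of _2010. DAP12KO read 11.60, 12.18, 11.16 and 11.67, and UT ran from 11.63 through 12.06 to 12.40 (−0.23 ± 0.29, adjusted p = 0.963). The second probe set, 1455221_at, was near the floor on 13 arrays and reached 5.15 on UT replicate 4 of _2012.

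**Figure D2:**
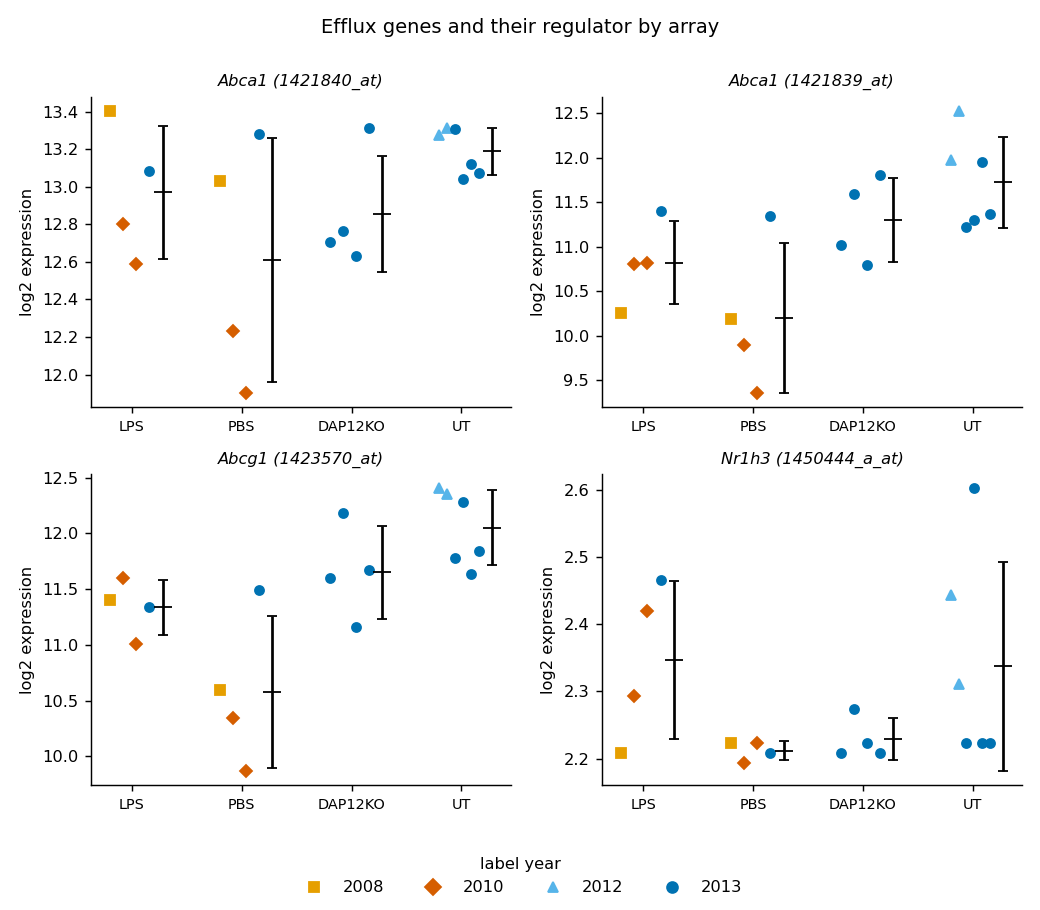
Log2 expression of Abca1 (2 probe sets), Abcg1 and Nr1h3 (y axis) on each array, by group (x axis) and label year (colour and shape), with black marks for the group mean ± SD. The 2 PBS arrays of _2010 are the lowest for Abca1 and Abcg1, UT is the highest group for both, and Nr1h3 stays between 2.19 and 2.60, so its axis covers a small fraction of a log2 unit.

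Nr1h3, the gene of LXR alpha on chr2:91184061-91202829, was near the floor on 17 of 18 arrays. Its probe set, 1450444_a_at, read 2.21, 2.29, 2.42 and 2.47 in LPS, 2.19 to 2.22 in PBS, 2.21 to 2.27 in DAP12KO and 2.22 to 2.60 in UT. The value of 2.60 belonged to UT replicate 2 of _2013. Values in this range have no order, the probe set lay under the filter, and it was not tested. Soat1, on chr1:156428108-156474328, is not analysed here.

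Across groups, the means of the synthesis genes and the pumps were ordered differently, with the PBS arrays of _2010 counted. For Hmgcs1 on 1433443_a_at the means were 13.44 ± 0.47 in PBS (SD, n = 4), 12.91 ± 0.24 in LPS, 12.76 ± 0.24 in DAP12KO and 12.72 ± 0.26 in UT (n = 6). For Sqle the order was PBS 8.65 ± 1.63, LPS 8.38 ± 0.31, UT 6.99 ± 1.23 and DAP12KO 6.85 ± 1.24, and for Idi1 on 1423804_a_at it was PBS 10.61 ± 1.31, LPS 10.34 ± 0.21, UT 9.46 ± 0.63 and DAP12KO 9.32 ± 1.38. Abca1 on 1421840_at ran UT 13.19 ± 0.12, LPS 12.97 ± 0.35, DAP12KO 12.85 ± 0.31 and PBS 12.61 ± 0.65. Abcg1 on 1423570_at ran UT 12.05 ± 0.33, DAP12KO 11.65 ± 0.42, LPS 11.34 ± 0.25 and PBS 10.58 ± 0.68. The array values of neighbouring groups overlapped in all these orders. LPS and PBS had the same label years, and those of DAP12KO and UT differed in part from theirs. Between LPS or PBS and DAP12KO or UT, treatment and year therefore cannot be told apart in these orders. DAP12KO and UT also differ in year, through the UT arrays of _2012. For Sqle, Idi1 and Abca1 the place of PBS leaned on its 2 arrays of _2010. Its arrays of _2008 and _2013 read 6.68 and 7.97 for Sqle and 9.38 and 9.61 for Idi1, below the LPS means. For Abca1 they read 13.03 and 13.28, above the LPS mean, as they did for Hmgcs1 at 13.35 and 13.02. For Abcg1 they lay on either side of it, at 10.60 and 11.49. The UT arrays alone differed between years for the pumps, with Abcg1 at 12.38 ± 0.03 in _2012 (n = 2) and 11.89 ± 0.28 in _2013 (n = 4).

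The study's first question, what maternal inflammation changes in fetal microglia, was answered for these genes by LPS minus PBS. Of the 15 member probe sets tested, 0 passed an adjusted p of 0.05 in limma, 5 were higher and 10 lower, and the median difference was −0.26, against −0.10 over all 22512 probe sets tested. Over all of these, 6 passed (0.0267%), so that few calls were made anywhere. That count was 243 with the LPS array of _2013 left out and 233 with the PBS array of that year left out, 141 and 144 likewise for _2008, and 1 without any single array of _2010. An unadjusted p under 0.05 was reached by 2 of the 15, Abcg1 1423570_at and Hmgcs1 1433443_a_at, against 12.3% of all probe sets. The groups did not overlap for 0 of 15, against 2.23% of all probe sets. Under array weights, which count arrays far from the fitted values for less, Abcg1 1423570_at and Abca1 1421839_at passed, as did 1968 probe sets in all. Their weighted differences were 1.07 and 1.01, against 1.20 and 1.19 within _2010. For Sqle the weighted value was −1.17, against −1.72 within _2010. These weighted values moved toward those of _2010, so they are no result without its PBS arrays. Without the 2 PBS arrays of _2010, Abcg1 1423570_at was at 0.32 and Abca1 1421839_at at 0.06. Of the 15 member probe sets, 7 were then higher and 8 lower, the median was −0.01, and 0 passed at either threshold.

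**Figure D3:**
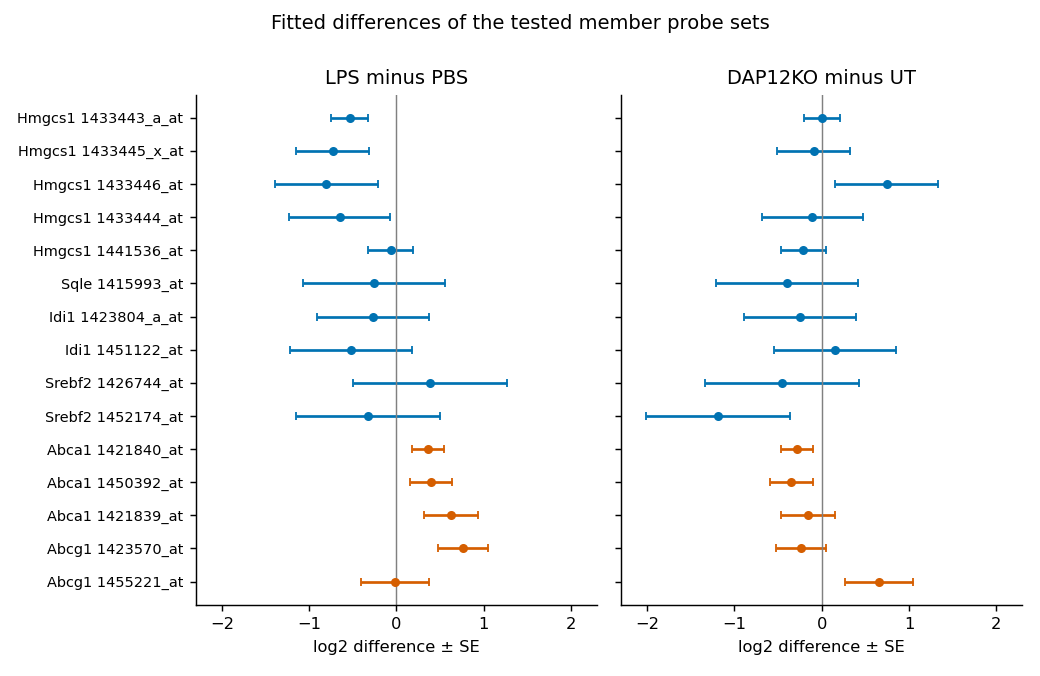
Fitted log2 differences ± SE (x axis) of the 15 tested probe sets (y axis) for LPS minus PBS and DAP12KO minus UT, with synthesis genes and Srebf2 in blue and the pumps in orange. On the left the 4 brighter pump probe sets lie between 0.36 and 0.76 and those of Hmgcs1 between −0.80 and −0.06; on the right most errors cross 0.

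The years did not give the same answer. The sign of LPS minus PBS was shared by _2008, _2010 and _2013 for Hmgcs1 1433443_a_at, negative in each, and for Abca1 1421839_at, positive in each at 0.07, 1.19 and 0.05. For Sqle, Idi1 1423804_a_at and Srebf2 1426744_at, _2010 was negative and the other years positive. Abca1 1421840_at, Abca1 1450392_at and Abcg1 1423570_at were positive in _2008 and _2010 and negative in _2013. LPS and PBS have 1 array each in _2008 and in _2013, and no test within a year was run.

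**Figure D4:**
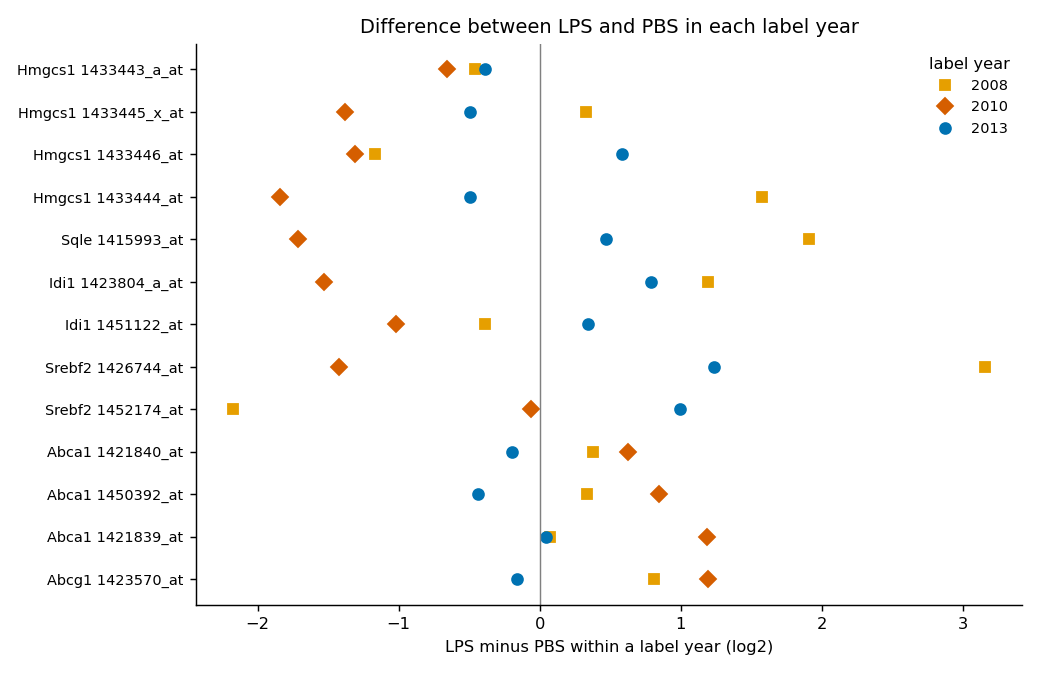
LPS minus PBS on the log2 scale (x axis) within each label year for 13 member probe sets (y axis); _2008 and _2013 are 1 array against 1, and _2010 is 2 against 2. The _2010 points lie left of 0 for the synthesis genes (−1.72 for Sqle) and right of 0 for the pumps (1.20 for Abcg1).

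The 2 PBS arrays of _2010 were the 2 highest of 18 for 4 of the 15 probe sets, Hmgcs1 1433445_x_at and 1433444_at, Sqle and Idi1 1423804_a_at. Over all probe sets tested, 11.2% had this pattern. They were the 2 lowest for 4 of the 15, the 3 of Abca1 and Abcg1 1423570_at, against 4.92% of all. As given above, these arrays also carried the highest neuron and progenitor marker means and the lowest microglial mean. They were also above all other arrays for 6 astrocyte markers (8.29 and 8.55 against 4.20 to 6.59), 3 oligodendrocyte lineage markers (4.66 and 5.90 against 2.40 to 2.84), 7 endothelial and mural markers (6.05 and 6.26 against 2.72 to 4.98) and 2 choroid plexus markers (8.72 and 10.07 against 2.34 to 7.19). These means cover only markers past the filter, which used all 18 arrays, these 2 included. Below it lay 2 of 8 astrocyte, 4 of 7 oligodendrocyte lineage, 3 of 10 endothelial and mural and 6 of 8 choroid plexus markers. Kl, Aqp1, Kcne2, Slc4a5, Sox10 and Mog were near the floor on all 18 arrays. Of the tested markers, Olig1 was near the floor on 14 arrays and Otx2 on 15. The part of these marker differences in the member values was not tested. Over the lists, the mean of 17 synthesis enzymes was 9.31 and 8.99 on them, against 6.68 to 8.16 elsewhere. The mean of 10 efflux and LXR response genes was 7.84 and 7.99 against 8.24 to 10.18 elsewhere. Among the neuron markers, Slc17a7 was near the floor on all 18 arrays, while Tubb3 was at 9.59 or above on every array.

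**Figure D5:**
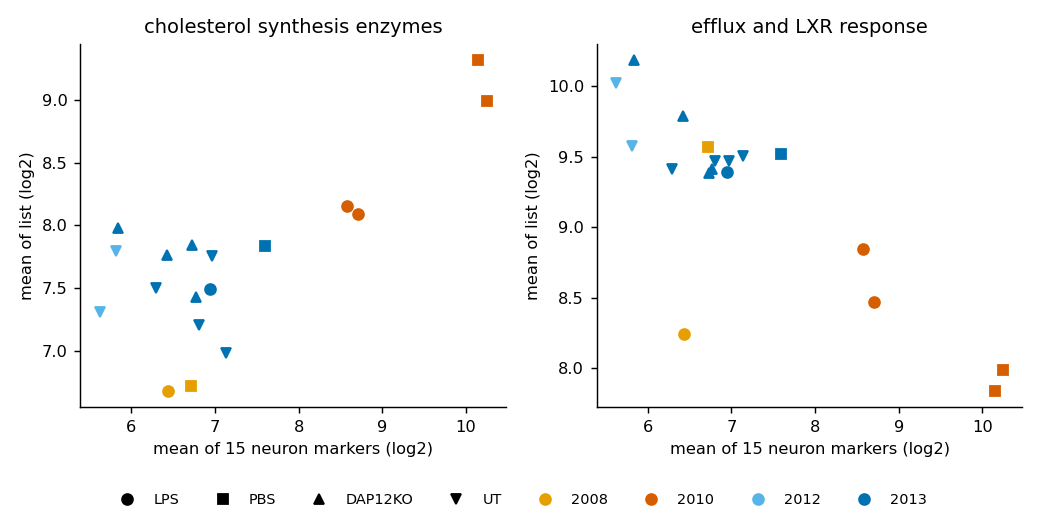
Mean log2 level of 17 cholesterol synthesis enzymes (left) and 10 efflux and LXR response genes (right) on the y axis against the mean of 15 neuron markers on the x axis, 1 point per array, with shape for group and colour for label year. The 2 PBS arrays of _2010 lie at the far right of both, at neuron means of 10.15 and 10.25, at the top on the left and at the bottom on the right.

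Pathway lists put the members among their partners, with each gene read by its brightest probe set. For LPS minus PBS, 3 of 11630 genes so read passed (0.0258%), and 0 did in any pathway list. Of 17 synthesis enzymes 3 were higher and 14 lower, with a median of −0.54 against −0.12 over all genes, of which 42.3% were higher. The neuron list moved the same way, with 14 of 15 lower and a median of −0.81, as did 11 of 12 progenitor markers (median −1.60). All 17 microglial markers were higher (median 0.48). When the 2 PBS arrays of _2010 were left out, 10 of 17 synthesis enzymes were lower (median −0.39), as were 10 of 15 neuron markers, and 8 of 17 microglial markers were higher. All 7 border macrophage markers were lower in LPS, with a median of −0.48, or −1.43 without the 2 PBS arrays, and with mean differences of −1.17 in _2008, 0.38 in _2010 and −1.57 in _2013. None of these markers passed, and their part in the list counts was not tested. The enzymes with the lowest p were Hmgcs1 and Nsdhl, a sterol demethylation enzyme. Nsdhl read 2.58 (_2008), 6.11 and 4.26 (_2010) and 7.36 (_2013) in LPS and 6.60, 7.79 and 7.03, and 7.10 in PBS. Its difference was −2.05 ± 0.90 (limma adjusted p = 0.365), with the _2013 arrays close together.

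Of 9 genes listed under sterol sensing and SREBP processing, 3 were higher and 6 lower (median −0.46). Without the 2 PBS arrays of _2010 this turned to 5 higher and 4 lower (median 0.079). The list also holds Gpam and Ubxn8, so its counts do not stand for that function alone. Scap, the SREBP escort, was at 3.92 to 8.27 in LPS and 6.80 to 9.53 in PBS (−1.42 ± 1.00, limma adjusted p = 0.599). Its within-year differences were −5.61 in _2008, −0.77 in _2010 and 1.47 in _2013. Gpam, an acyltransferase of lipid synthesis, differed by −0.70 ± 0.53, with −2.95, −0.016 and 0.17 in the same order of years. Both fitted values thus leaned on 1 LPS and 1 PBS array of _2008. Insig1, which holds SREBP in the endoplasmic reticulum and is itself an SREBP target, was at 9.65 to 11.51 in LPS and 10.41 to 12.13 in PBS (−0.56 ± 0.44, limma adjusted p = 0.641). The Insig1 difference was 1.01 in _2008, −1.24 in _2010 and −0.78 in _2013. Of 11 uptake and endosomal export genes, 8 were higher and 3 lower (median 0.29), and without the 2 PBS arrays of _2010 4 were higher and 7 lower. Npc2, which carries cholesterol out of lysosomes, was at 13.85 to 14.33 in LPS and 13.38 to 14.13 in PBS (0.30 ± 0.12, adjusted p = 0.33). By year the Npc2 difference was −0.16 in _2008, 0.53 in _2010 and 0.29 in _2013. Vldlr, a lipoprotein receptor, was near the floor in both groups in _2008 and _2013, but at 8.61 in LPS replicate 1 and 10.94 in PBS replicate 2 of _2010 (−1.22 ± 0.50, adjusted p = 0.333).

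Of 10 efflux and LXR response genes tested, 7 were higher and 3 lower (median 0.25). Leaving out the 2 PBS arrays of _2010 turned the count to 3 higher and 7 lower (median −0.50). Apoe, the brain's main apolipoprotein and an LXR target, was at 10.09 to 13.65 in LPS and 8.59 to 14.03 in PBS (0.59 ± 0.49, limma adjusted p = 0.678). Its difference was positive only in _2010, at 1.54, and −0.37 in both _2008 and _2013. Abcg4, a neuronal relative of Abcg1, was near the floor on most arrays and reached 4.71 and 5.39 on a PBS array each of _2008 and _2010 (−1.22 ± 0.53, adjusted p = 0.355). The 2 lowest Apoe values, 8.59 and 9.86, were those of the PBS arrays of _2010. Of 7 genes of esterification, storage and oxysterols, 5 were higher and 2 lower, and without those 2 arrays 2 were higher, 3 lower and the median was 0. The lowest p among them was that of Cyp7b1, an oxysterol hydroxylase, at 7.13 and 5.11 on the PBS arrays of _2010 and at 2.51 to 2.55 on the other PBS and all LPS arrays (−1.81 ± 0.68, adjusted p = 0.294). Nceh1, a cholesteryl ester hydrolase, differed by 0.78 ± 0.50 (adjusted p = 0.554), with 0.43 in _2008, 1.54 in _2010 and −0.40 in _2013. The neighbouring fatty acid synthesis list had 1 higher and 8 lower (median −0.69), or 1 higher and 7 lower (median −0.31) without the 2 PBS arrays of _2010. Its Fads2, a desaturase, was at 4.43 to 8.25 in LPS and 9.28 to 11.22 in PBS, which did not overlap (−3.59 ± 0.89, adjusted p = 0.144). Scd1, another desaturase, was above the floor only on the PBS arrays of _2010 among these groups, at 8.46 and 5.98 (−2.51 ± 0.82, adjusted p = 0.233).

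The second question, what loss of DAP12 changes, was read from DAP12KO minus UT. In limma 0 of the 15 member probe sets passed, 3 were higher and 12 lower, and the median was −0.21, against 0.02 over all tested. The 12 include Hmgcs1 1433443_a_at at −0.00038 and repeat genes with several probe sets. By the mean of a gene's probe sets, Hmgcs1 (0.066) and Abcg1 (0.21) were higher. Sqle (−0.39), Idi1 (−0.049), Srebf2 (−0.82) and Abca1 (−0.26) were lower. Of all genes by their brightest probe set, 51.6% were higher. Of all 22512 probe sets 0 passed (0%), and the same held for genes by their brightest probe set (0%). An unadjusted p under 0.05 was reached by 0 of the 15, against 5.48% of all probe sets. The lowest adjusted p was 0.921. The groups did not overlap for 0 of 15, against 0.84% of all. The narrowest intervals were those of Abca1 1421840_at (−0.67 to 0.11) and Hmgcs1 1433443_a_at (−0.44 to 0.44), and for Srebf2 1426744_at the interval ran from −2.34 to 1.43. Of 7 border macrophage markers, 2 were higher and 5 lower in DAP12KO (median −1.22, lowest limma adjusted p = 0.676), and their mean level was 7.75 to 8.52 in DAP12KO and 7.80 to 10.69 in UT. The part of these markers in the member values was not tested.

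Among the lists, 10 of 17 synthesis enzymes were higher and 7 lower in DAP12KO (median 0.22 against 0.02 over all genes), and 0 passed. The 2 with the lowest p were not members, and both were read by probe sets whose suffix marks probes that other sequences can share. Fdft1, which makes squalene, read 10.94, 9.74, 11.41 and 9.52 in DAP12KO, above all 6 UT arrays (8.96 to 9.37), with a difference of 1.23 ± 0.43 (limma adjusted p = 0.801). Hsd17b7, a sterol ketone reductase, read 7.19, 6.28, 5.97 and 8.46, against UT arrays of 3.57 to 7.23 (2.55 ± 0.75, adjusted p = 0.676). Sqle, the enzyme that uses the product of Fdft1, was at 5.18 to 7.86 in the same arrays and did not share that position. Cd36, a scavenger receptor of the uptake list, was at 2.41 to 6.38 in DAP12KO and at 5.84 or above in UT (−2.83 ± 1.00, adjusted p = 0.802), and Msr1, another scavenger receptor, at 4.54 to 6.85 and 6.08 to 9.63 (−1.43 ± 0.80, adjusted p = 0.921). Of 10 efflux and LXR response genes 7 were higher and 3 lower, with Abca1 and Abcg1 among the lower and Abca7, a related pump, at 1.10 ± 0.59 (adjusted p = 0.921). Apoe differed by 0.16 ± 0.49, Insig1 by −0.0024 ± 0.44, its relative Insig2 by −0.61 ± 0.43 and Gpam by 0.81 ± 0.53, none past the threshold. In the storage list, hormone-sensitive lipase (Lipe) differed by 1.29 ± 0.59 and the oxysterol enzyme Ch25h by 0.97 ± 0.66 (adjusted p of 0.898 and 0.921). Among fatty acid genes, the elongase Elovl5 was at 10.23 to 11.69 in DAP12KO and 11.69 to 12.81 in UT (−1.45 ± 0.37, adjusted p = 0.584), and Fasn differed by −0.73 ± 0.44.

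Whether the members responded differently to inflammation and to loss of DAP12 was tested as the difference of the 2 responses, whose groups share no arrays. Again 0 of 15 passed, against 1 of all probe sets tested (0.00444%). An unadjusted p under 0.05 was reached by 3 of 15, against 8.19% of all. These were Abca1 1421840_at (0.64 ± 0.26), Abca1 1450392_at (0.75 ± 0.34) and Abcg1 1423570_at (0.99 ± 0.41), with limma adjusted p of 0.589, 0.607 and 0.589. For these 3, LPS lay above PBS and DAP12KO below UT in the fit. Since the first part of that contrast fell toward 0 without the 2 PBS arrays of _2010, the 3 differences fell with it, to 0.37, 0.30 and 0.56 in the same order.

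The genes most like each member over the 18 arrays were found by the smallest root-mean-square difference of centred log2 values. For Abca1 they were Tm9sf3, Gcnt1 and Sparc, at 0.21, 0.22 and 0.23, against a spread of 0.40 for Abca1 itself. For Abcg1 they were AU020206, Rrbp1 and Csf2rb, at 0.28, 0.30 and 0.32, against 0.67. Hmgcs1 was most like Ttll12, Brwd3 and Dlx5 (0.23, 0.27 and 0.28 against 0.39), Sqle most like Ilf2, Id3 and Snapin (0.79, 0.82 and 0.85 against 1.33), and Idi1 most like Spast, Ptbp2 and Ncoa2 (0.52, 0.53 and 0.55 against 1.01). For Srebf2 the nearest, Zfp157, Mynn and Snhg4, were still 0.92, 1.04 and 1.05 away against 1.65. The arrays share batch years and sample make-up, so likeness over them is a description only.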

How the data were processed

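Per the labels' protocols, RNA was amplified with the Ovation Pico WTA v2 kit, labelled with the Encore Biotin Module and hybridized to Mouse430_2 arrays. The submitters' processing notes name RMA, a method of background correction, quantile normalization and probe summary, with no version in the sources used here. The authors deposited log2 values of 45101 probe sets on 18 arrays, with a shared lowest value of 2.19. They were used as deposited, and the number of arrays limits the precision.

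Probe sets were named through the platform annotation: 34958 name 1 gene, 932 several and 9211 none, and 34754 of the first match RefSeq genes by Entrez number (0 symbols updated). Probe sets with a mean at or above the 40th percentile (2.49) were tested, 22512 in all. One model (limma 3.58.1, R 4.3.3; residual degrees of freedom 11) held group means and label year as an additive term, with a variance prior that follows intensity. Two-sided p-values were adjusted by Benjamini and Hochberg over every probe set tested, with a threshold of 0.05. Errors of differences are standard errors and those of means are SD. All DAP12KO arrays are of _2013, so with the year term the UT arrays of _2012 add only to the spread.

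Alternatives changed the year term, filter, samples, replicate block, array weights, probe sets per gene, variance prior, scaling, floor and arrays left out. Gene list counts without the 2 PBS arrays of _2010 were added after seeing the data. Gene lists are described by counts, with no set test. By rule, the 2 list genes of lowest p in a contrast were named where none passed, with Apoe and Insig1 in any case, and the 3 genes most like each member were named; Tyrobp and single marker genes were added. The members and lists were chosen with earlier results of these data known. The model was tested on simulated data. Matplotlib 3.10.9 under Python 3.11.15 drew the figures.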

Additional observations from a re-analysis of the deposited data

Results flagged for a closer look

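Each group of 4 to 10 arrays was searched for an array far from the others. The measure was the gap to its nearest neighbour as a share of the group's range. Of 60 groups, 4 had such an array. For values without ties, chance gives about 1 in 20. For Hmgcs1 1441536_at these were LPS replicate 2 of _2010 (share 1, at 2.36 with the nearest at 2.51), DAP12KO replicate 4 of _2013 (share 1, 2.19 against 2.51) and UT replicate 2 of _2013 (share 0.687, 2.93 against 2.63). For Abcg1 1455221_at it was LPS replicate 3_2 of _2013 (share 0.992, 2.38 against 2.43). Both probe sets lie at or close to the floor, and the gaps are small in log2 units. On 1441536_at most LPS and DAP12KO arrays share the value 2.51, so a single array off it has a share of 1 by construction. The count of 4 therefore cannot be set against the chance rate. No array was far from its group in this way for the brighter probe sets, the 2 PBS arrays of _2010 included, since 2 of 4 arrays that lie together leave no single outlier.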

How the results depend on the processing

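The count of member probe sets past the threshold was 0 in each of the 3 contrasts under all alternatives but one. With array weights it was 2 for LPS minus PBS, Abcg1 1423570_at (1.07, limma adjusted p = 0.017) and Abca1 1421839_at (1.01, adjusted p = 0.03), and 1968 of all 22512 probe sets then passed; the cause was not tested. Leaving out 1 array at a time gave 0 to 0 in all contrasts. Over all probe sets, the count for LPS minus PBS was 6 and ran from 0 (only the 2 groups, or a stricter filter) and 1 (no year term, or median centring) to 14 (quantile normalization), 21 (without the 2 PBS arrays of _2010), 11 (without all of _2010) and 243 (without LPS replicate 3_2 of _2013). For DAP12KO minus UT it was 0 and at most 5, without DAP12KO replicate 5. For the difference of the responses it was 1 and ran from 0 to 55 (array weights). Fitting 1 probe set per gene alone, 11 of 11630 genes passed for LPS minus PBS and 0 members did. LPS and PBS arrays of the same number in _2010 deviated together (r = 0.52), DAP12KO and UT arrays of _2013 did not (−0.01 and 0.00); with a replicate block 0 of 15 passed in either contrast, and 4 probe sets passed overall for LPS minus PBS.

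Of the single log2 differences, 279 of 304 alternative values for LPS minus PBS kept direction and side of the threshold, 299 of 319 for DAP12KO minus UT and 394 of 424 for the difference of the responses. The cause of the turns was not tested. Without the 2 PBS arrays of _2010, and equally without all arrays of _2010, LPS minus PBS turned for Sqle (1.19), Idi1 1423804_a_at (0.99), Hmgcs1 1433444_at (0.54) and Abca1 1450392_at (−0.052), and the difference of the responses for Idi1 1423804_a_at (1.24), Hmgcs1 1433444_at (0.65) and Hmgcs1 1433445_x_at (0.0095). Array weights turned Srebf2 1426744_at (−0.90 for LPS minus PBS, −0.16 for the difference of the responses) and Sqle (−0.65 for the latter). Centring on the median turned Hmgcs1 1441536_at (0.18), Abcg1 1455221_at (0.23) and Idi1 1423804_a_at (0.29 for the difference of the responses), and quantile normalization the last 2 (0.013 and 0.12). Values set to the floor put Abcg1 1455221_at at 0. Without the year term, Hmgcs1 1433443_a_at for DAP12KO minus UT was 0.035 and Sqle for the difference of the responses −0.12. Leaving out 1 array at a time turned these, with lowest and highest value. For LPS minus PBS: Abcg1 1455221_at −0.025 to 0.0080, Sqle 1415993_at −0.99 to 0.16, Idi1 1423804_a_at −0.76 to 0.072, Srebf2 1426744_at −0.54 to 0.99, Srebf2 1452174_at −0.76 to 0.29. For DAP12KO minus UT: Hmgcs1 1433443_a_at −0.12 to 0.064, Idi1 1423804_a_at −0.76 to 0.27, Hmgcs1 1433445_x_at −0.30 to 0.038, Hmgcs1 1433444_at −0.33 to 0.063, Sqle 1415993_at −0.83 to 0.16, Idi1 1451122_at −0.53 to 1.00, Abca1 1421839_at −0.32 to 0.013, Srebf2 1426744_at −1.30 to 0.18. For the difference of the responses: Sqle 1415993_at −0.59 to 0.57, Idi1 1423804_a_at −0.54 to 0.49, Idi1 1451122_at −1.52 to 0.0086, Hmgcs1 1433444_at −1.28 to 0.092, Srebf2 1426744_at −0.083 to 1.69.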
